A study of Mus musculus with 19 samples.

Results

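The 32 genes described here are p53 target genes, which are known from textbook work to be switched on by the transcription factor p53. They were named as a list of mouse symbols, and each was found once by its Ensembl identifier among the 48795 genes of the expression table. The rule for the list uses no measured value, although the list was drawn up with earlier results of these data known. The table holds RNA sequencing of 19 primary p53/MCA sarcomas, 11 labelled Rag2-/- and 8 labelled Rag2+/-. Tumors of both groups were started in mice aged 6 to 10 weeks by injecting Adeno-sgp53-Cas9, an adenovirus that brings Cas9 and a guide RNA against Trp53, into the gastrocnemius muscle. An injection of 300 µg of the carcinogen 3-methylcholanthrene (MCA) followed, no therapy was given, and tumors were taken at a volume of about 70 to 150 mm3. Rag2-/- mice lack T and B lymphocytes, their Rag2+/- littermates have them, and males and females were both used. The virus carried Cas9 for transient expression at the injected site, editing was not measured here, and bulk RNA mixes tumor cells with host cells. The guide was shared by both groups, so the table holds no tumor with untargeted Trp53 for comparison.

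p53 is held at a low level by Mdm2, an E3 ubiquitin ligase that marks p53 for degradation and is itself a p53 target. DNA damage frees p53, which binds paired decamer elements in DNA and raises genes that stop the cell cycle, start apoptosis, repair DNA or restrain growth. Many of these genes are also controlled by other factors and have a basal level without p53, so their RNA is found in tissues in which p53 is silent or lost. Skeletal muscle fibers have left the cell cycle for good, and several members of the list, among them Cdkn1a and Ak1, are expressed in them.

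Sequence matches to the paired elements that p53 can bind are shown first, because binding at such an element is what defines a direct target. RefSeq start sites on GRCm38.p6 gave a window of 300 bases, 250 before and 50 after the start, for 26 of the 32 genes. Each window was searched on both strands for 2 half-sites of 10 bases, each with a core of C, a pair of A or T bases and G, with at most 2 mismatches to the consensus purines and pyrimidines outside the cores and at most 13 bases between the half-sites. A match was found for 5 of the 26 genes (19.2%) and for 2.47% of the 27025 genes with a window. The 5 are printed with the cores in capitals.
Cdkn1a: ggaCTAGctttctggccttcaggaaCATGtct
Gtse1: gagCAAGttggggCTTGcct
Pml: agcCATGcccgcatgccgggCTTGttt
Bax: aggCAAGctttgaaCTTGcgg
Sesn1: gcgCTTGgccttcaagCTTGttt
The Cdkn1a match, with 0 mismatches and 12 bases between the half-sites, lay on the plus strand at chr17:29090906-29090937, 73 to 42 bases before the start. The Gtse1 match, with 1 mismatch and 0 bases between the half-sites, lay at chr15:85859945-85859964 on the plus strand, and the start site falls inside it. The Pml match was at chr9:58249921-58249947 on the minus strand with 1 mismatch. The Bax and Sesn1 matches, each with 2 mismatches, were at chr7:45467079-45467099 on the minus strand and chr10:41887253-41887275 on the plus strand. The other 21 genes with a window had no match in these letters, which says nothing about elements farther away, and no binding was measured.

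Values are log2 of the FPKM plus 0.1, normalized by the authors to the upper quartile of each tumor, so that the lowest possible value is −3.32, and levels of different genes are compared per length of transcript. Depth was estimated at 24.7 to 33.6 M fragments on genes in 18 tumors and at 5.17 M in the Rag2-/- tumor S41. Trp53, the gene targeted by the guide, ranged from 3.47 in S50 through a median of 4.25 to 4.94 in S45 among Rag2-/- tumors, and from 3.65 in S54 through a median of 4.12 to 6.35 in S58 among Rag2+/- tumors. Its RNA was present in every tumor, the groups overlapped, and a whole-gene value does not show whether the gene was edited. Rag2 itself was at −2.05 to 0.36 in Rag2-/- and −2.33 to −0.57 in Rag2+/- tumors and did not separate the labels, whereas the summed level of 6 T cell genes, 0.784 to 4.41 FPKM against 6.46 to 39.1 FPKM, did.

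The tumors differed in muscle and cell cycle content. A muscle score, the mean log2 level of 14 skeletal muscle genes such as Ckm and Acta1, ran from 4.19 in S48 to 11.77 in S51 among Rag2-/- tumors and from 6.45 in S53 to 12.98 in S56 among Rag2+/- tumors. Of the 19 tumors, 5 stood above 10 (S51 of the Rag2-/- group and S52, S56, S59 and S60 of the Rag2+/- group), and the highest below it was 9.87. A cell cycle score over 16 genes shared 72.2% of its variance with the muscle score, and genotype shared 22.0%. The Rag2-/- tumor S46 stood apart: its Cdkn2a level was 1.12 where the other 18 tumors were at 5.12 to 8.95, and its 4 adipocyte genes summed to 5022 FPKM against 260.6 FPKM at most in the Rag2+/- group. S41, S46 and S51 of the Rag2-/- group and S56 of the Rag2+/- group are not among the 15 tumors listed in the study's source data. The mesenchymal markers expected in sarcoma were present in all tumors, with a mean log2 level of 6.17 to 8.46. In bulk tumors, fewer cells of a type and less RNA per cell cannot be told apart.

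The list was expressed throughout the tumors with a single exception. Perp, a membrane protein of desmosomes and apoptosis, had a mean log2 level of −0.59 and did not pass the filter of a mean above 0, which left 31 members and 12826 genes for testing. It was at −3.32, 0 fragments, in the shallow S41, and its highest level was 1.01 in S59. Ccng1, Ak1, Cdkn1a, Phlda3 and Bax had the highest levels over the 19 tumors. Of the Bax exonic bases, 12.2% are shared with the overlapping gene model Gm45808, and of those of Ei24 6.66% lie opposite Gm26787, so these values could hold reads of both. The plot of all members by tumor shows that they did not move as a block.

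**Figure D1:**
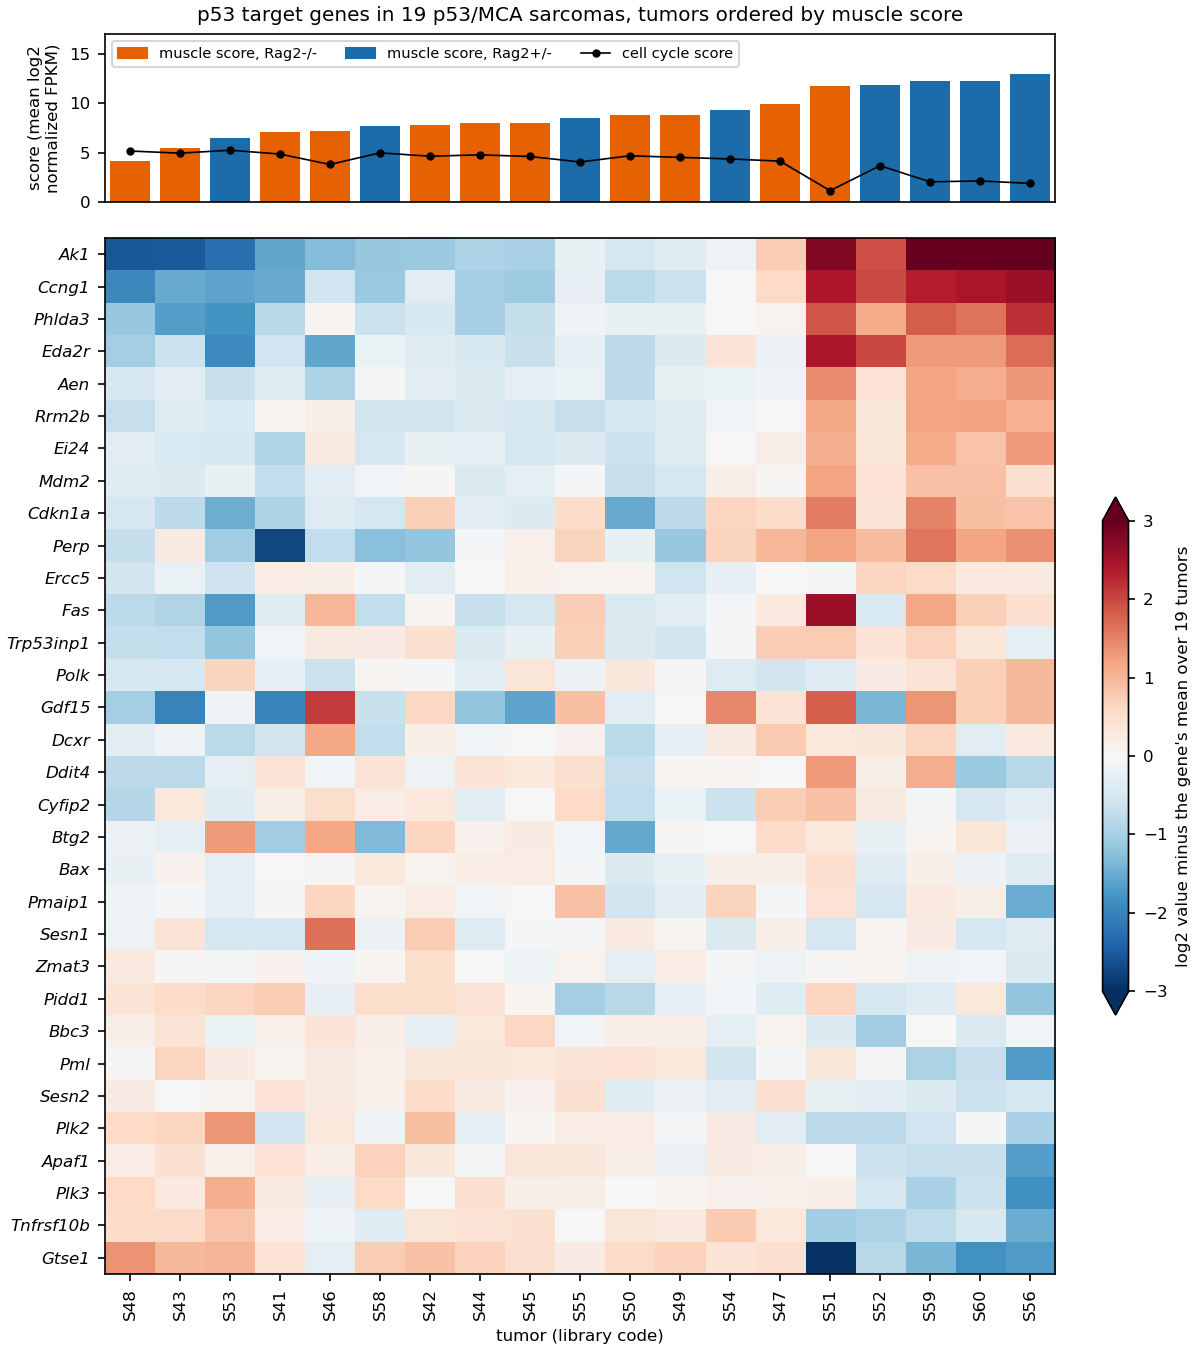
Upper panel: muscle score of each of the 19 tumors as bars, coloured by genotype, and cell cycle score as a line (both mean log2 normalized FPKM). Lower panel: each p53 target gene's log2 value minus its mean over the 19 tumors, genes ordered by their correlation with the muscle score, colours capped at 3. Ak1 and Ccng1 at the top rise towards the 5 tumors on the right, Gtse1 at the bottom falls, and Bax and Btg2 in the middle follow no order.

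The members went with muscle content in both directions. In a limma fit of each gene on the muscle score over the 19 tumors, 22 of 31 members passed an adjusted p of 0.05, beside 60.2% of all 12826 genes tested; at an unadjusted p under 0.05 these were 22 members and 64.0% of all genes. Of these, 14 were higher and 8 were lower in tumors with more muscle, beside 26.5% and 33.7% of all genes. The share of a gene's variance explained by the score (R2 of the line) had a median of 44.4% over the 31 members and of 35.0% over all genes tested, and was above 50% for 14 members and for 33.9% of all genes. All values of a slope are log2 change per unit of the muscle score. They describe how levels and muscle content went together and do not divide a level into the part from muscle cells and the part from tumor cells.

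**Figure D2:**
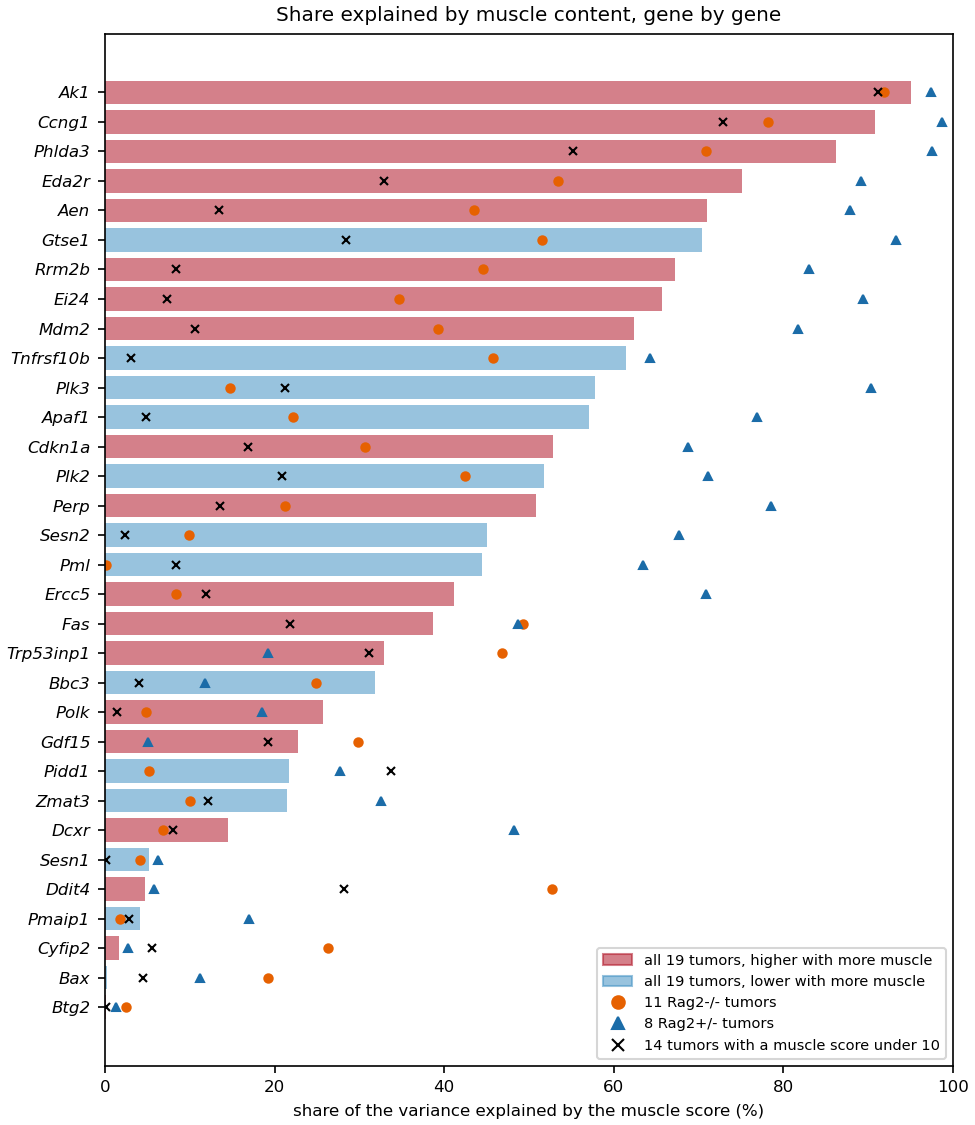
Share of each p53 target gene's variance explained by the muscle score, in percent. Bars give all 19 tumors, red where the gene was higher and blue where it was lower with more muscle; circles, triangles and crosses give the 11 Rag2-/- tumors, the 8 Rag2+/- tumors and the 14 tumors with a score under 10. Ak1 stays at 91.1% or above in all 4 sets, while in the 14 tumors all but Ak1, Ccng1 and Phlda3 are at 33.7% or below.

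Of the 6 genes of cell cycle control, 2 were higher and 3 lower with muscle, beside 26.5% and 33.7% of all genes. Cdkn1a (ENSMUSG00000023067, chr17:29090976-29100727), the p21 inhibitor of cyclin-dependent kinases, had levels of 4.60 in S50, 5.70 at the median and 7.65 in S51 among Rag2-/- tumors. Among Rag2+/- tumors they were 4.64 in S53, 6.71 at the median and 7.59 in S59. Its low and high ends were nearly the same in both groups. The score explained 52.8% of its variance, with a slope of 0.27 (SE 0.059, adjusted p 0.000525). Ccng1 (ENSMUSG00000020326, chr11:40748552-40755311), cyclin G1, ran from 4.37 in S48 through 5.49 to 8.73 in S51 in Rag2-/- tumors and from 4.71 in S53 through 7.29 to 8.87 in S56 in Rag2+/- tumors. Its 5 highest values were those of the 5 tumors with a muscle score above 10, and the next, 6.89, was that of S47, which had the next highest score. The share explained was 90.8%, with a slope of 0.61 (SE 0.045, adjusted p 5.75e-10). Gtse1, a microtubule-bound protein of G2 and S phase that holds p53 in the cytoplasm, went the other way, from 3.54 in S48 to −0.78 in S51 in Rag2-/- tumors and from 3.20 in S53 to 0.38 in S60 in Rag2+/- tumors. The score explained 70.4% of its variance, with a slope of −0.41, and the cell cycle score 95.1%. The polo-like kinases Plk2 and Plk3 were lower with muscle as well, with slopes of −0.18 and −0.20. Btg2, an antiproliferative gene, had a share of 0.08%, the lowest of the list. Its level ran from 3.38 in S50 through 5.05 to 6.08 in S46 in Rag2-/- tumors and from 3.60 in S58 through 4.88 to 6.20 in S53 in Rag2+/- tumors.

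The 3 genes that act back on p53 were split. Mdm2 (ENSMUSG00000020184, chr10:117688875-117710758) was at 3.93 in S41, 4.30 at the median and 5.84 in S51 among Rag2-/- tumors, and at 4.45 in S53, 4.98 at the median and 5.55 in S59 among Rag2+/- tumors. The Rag2-/- group held both its lowest and its highest value. The score explained 62.4% of its variance, with a slope of 0.18 (SE 0.033, adjusted p 0.000128). Trp53inp1, a nuclear body protein that promotes p53 phosphorylation, had a slope of 0.14 and a share of 33.0%. Pml, the organizer of those bodies, was lower with muscle, with a slope of −0.16 (SE 0.041) and a share of 44.4%. The Pml share was 63.5% within Rag2+/- tumors and 0.0946% within Rag2-/- tumors.

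Among apoptosis genes other than receptors and their adaptors, 2 of 6 tested were higher and 2 lower, beside 26.5% and 33.7% of all genes. Ei24, an endoplasmic reticulum protein, and Aen, a nuclease that digests nuclear DNA, had shares of 65.7% and 71.0% and slopes of 0.22 and 0.25. Apaf1, the scaffold of the apoptosome, and Bbc3 (PUMA), a BH3-only activator, had slopes of −0.17 and −0.088. Bbc3 levels were 1.79 in S51, 2.40 at the median and 2.82 in S45 among Rag2-/- tumors, and 1.15 in S52, 2.05 at the median and 2.41 in S58 among Rag2+/- tumors. The tumor with the highest Cdkn1a, S51, had the lowest Bbc3 of its group. The Bbc3 call was lost when S52 was left out (slope −0.063, adjusted p 0.0667). Bax (ENSMUSG00000003873, chr7:45461697-45466898), the pore-forming effector, was the steadiest of the well expressed members, from 5.40 in S50 through 5.92 to 6.32 in S51 in Rag2-/- tumors and from 5.41 in S56 through 5.71 to 6.12 in S58 in Rag2+/- tumors. Only 0.203% of its variance went with muscle over all 19 tumors. Within the groups the slopes had opposite signs, 0.055 (share 19.3%) in Rag2-/- and −0.037 (share 11.3%) in Rag2+/- tumors. Pmaip1 (NOXA) had a share of 4.16% and its lowest level, 0.68, in S56.

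The receptors of the TNF receptor family differed in direction. Eda2r (ENSMUSG00000034457, chrX:97333840-97377216), a receptor of the TNF family, ran from 1.52 in S46 through 2.47 to 5.53 in S51 in Rag2-/- tumors and from 1.16 in S53 through 3.92 to 5.08 in S52 in Rag2+/- tumors. The slope was 0.43 (SE 0.056, adjusted p 3.78e-06) and the share 75.2%. Fas was at 1.74 in S43, 2.27 at the median and 5.20 in S51 among Rag2-/- tumors, and at 0.95 in S53, 2.86 at the median and 3.80 in S59 among Rag2+/- tumors. The next tumor after S51 was S59, and the score explained 38.7% of the Fas variance, with a slope of 0.24 (SE 0.070) that turned to −0.14 (SE 0.088, adjusted p 0.536) with the cell cycle score in the model. Tnfrsf10b, the only TRAIL death receptor of the mouse, was lower with muscle, with a slope of −0.21 and a share of 61.4%. Pidd1, an adaptor that activates caspase-2, had a slope of −0.11 that did not pass (adjusted p 0.0795); without S51 or S60 it passed, with the lowest adjusted p at 0.0273.

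The 3 genes of DNA repair and nucleotide supply were higher with muscle, as were 26.5% of all genes, and none of the 3 passed with the cell cycle score in the model (adjusted p 0.366 to 0.846). Rrm2b, the p53-inducible ribonucleotide reductase subunit that serves non-dividing cells, had a share of 67.2% and a slope of 0.23. Ercc5, the 3′ nuclease of nucleotide excision repair, had a slope of 0.095 and Polk, a translesion polymerase, one of 0.10. Polk was at 1.41 in S46, 1.72 at the median and 2.43 in S45 among Rag2-/- tumors, and at 1.66 in S54, 2.39 at the median and 3.03 in S56 among Rag2+/- tumors. Its call, at an adjusted p of 0.0404, was lost in 9 of the 19 fits that left out a tumor (S41, S43, S44, S46, S48, S52, S56, S59 or S60), with an adjusted p of up to 0.161.

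The genes of growth and metabolic control held the strongest and some of the weakest relations with muscle. Ak1 (ENSMUSG00000026817, chr2:32621758-32635058), the cytosolic adenylate kinase, was at 3.70 in S48, 5.28 at the median and 9.03 in S51 among Rag2-/- tumors, and at 3.98 in S53, 7.13 at the median and 9.85 in S56 among Rag2+/- tumors. Its slope of 0.81 (SE 0.042, adjusted p 2.39e-12) was the steepest of the list, and the share was 95.0%. Phlda3 (ENSMUSG00000041801, chr1:135766119-135769136), an inhibitor of AKT signaling, ran from 4.45 in S43 through 5.62 to 8.0 in S51 in Rag2-/- tumors and from 4.31 in S53 through 6.66 to 8.29 in S56 in Rag2+/- tumors, with a slope of 0.46 and a share of 86.2%. Sesn1 and Sesn2, which restrain mTORC1, were not alike. Sesn1 levels were 2.93 in S41, 3.54 at the median and 5.09 in S46 among Rag2-/- tumors, and 2.93 in S60, 3.18 at the median and 3.69 in S59 among Rag2+/- tumors, with a share of 5.15%. Sesn2 was at 2.31 in S50, 2.92 at the median and 3.23 in S42 among Rag2-/- tumors, and at 2.03 in S60, 2.34 at the median and 3.13 in S55 among Rag2+/- tumors. Only Sesn2 passed, with a slope of −0.10 and a share of 45.1%. Gdf15, a stress hormone of the TGF-beta family, covered a wide range, from −0.90 in S43 through 0.77 to 3.20 in S46 in Rag2-/- tumors and from −0.27 in S52 through 1.91 to 2.55 in S54 in Rag2+/- tumors. Its slope of 0.25 had an adjusted p of 0.0439 and was lost in 13 of the 19 fits that left out a tumor (all but those without S42, S46, S52, S53, S54 or S55), with an adjusted p of up to 0.112; with the cell cycle score in the model it was −0.088 (SE 0.181). Ddit4, an inhibitor of mTORC1 in hypoxia, and Dcxr, a carbonyl reductase, did not pass, with shares of 4.67% and 14.5%. With each tumor left out in turn these shares ran from 0.828% to 17.2% and from 9.95% to 30.7%. Without S46 Dcxr passed in limma at an adjusted p of 0.0203.

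The remaining members, Zmat3, which binds RNA, and Cyfip2, of the WAVE complex of actin assembly, did not pass. Zmat3 was at 1.91 in S50, 2.24 at the median and 2.73 in S42 among Rag2-/- tumors, and at 1.77 in S56, 2.18 at the median and 2.31 in S55 among Rag2+/- tumors, a narrow range throughout. Cyfip2 ran from 0.60 in S48 through 1.63 to 2.34 in S51 in Rag2-/- tumors and from 0.83 in S54 through 1.28 to 2.05 in S55 in Rag2+/- tumors, with a share of 1.69%.

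The plot of values against muscle content shows the kinds of relation side by side. Ccng1 followed the line closely, Cdkn1a and Mdm2 scattered widely around it below a score of 10, and Bax and Sesn1 had no clear relation over all 19.

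**Figure D3:**
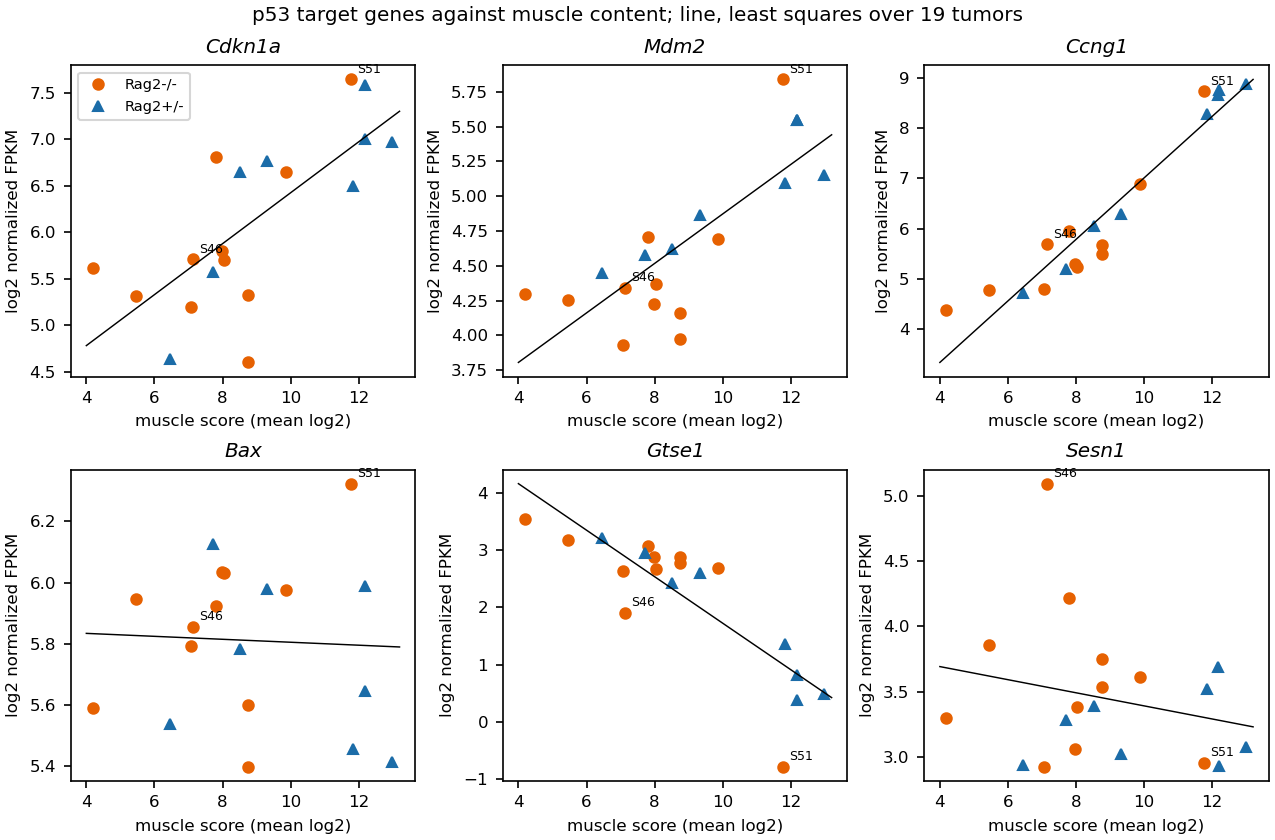
Log2 normalized FPKM of 6 p53 target genes (vertical axes, each with its own range) against the muscle score (horizontal axes) in 11 Rag2-/- tumors (circles) and 8 Rag2+/- tumors (triangles), with the least-squares line over all 19. S46 and S51 are named: S51 is highest for Cdkn1a, Mdm2 and Bax and lowest for Gtse1, and S46 is highest for Sesn1.

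How far these relations rest on the 5 tumors above a score of 10 was measured by leaving them out, a choice made after seeing the scores. In the other 14 tumors 3 members passed, Ak1 (slope 0.59, adjusted p 1.14e-06), Ccng1 (0.39, 0.00116) and Phlda3 (0.30, 0.0309), beside 3.18% of all genes. The slope of Cdkn1a there was 0.20 (SE 0.115, adjusted p 0.472) and that of Mdm2 0.060 (SE 0.049, adjusted p 0.644). With the cell cycle score in the model, the same 3 passed, beside 3.60% of all genes, and the Cdkn1a and Mdm2 slopes were 0.066 (SE 0.099) and 0.036 (SE 0.050). The cell cycle score alone explained 86.9% of the variance of Ei24, 86.7% of Rrm2b and 71.5% of Fas, each more than the muscle score did. The same held for Phlda3 (88.9% against 86.2%), Aen (81.9% against 71.0%), Mdm2 (77.1% against 62.4%) and Cdkn1a (63.7% against 52.8%). For Ccng1 (86.4% against 90.8%) and Ak1 (84.8% against 95.0%), among others, the cell cycle score explained less. Its median share was 38.1% over the members and 42.6% over all genes, where the muscle score had 44.4% and 35.0%. Which of the 2 scores members such as Ei24, Rrm2b and Fas follow cannot be told apart from the tumors above 10, where muscle genes were high and cell cycle genes low.

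The same 3 members had the highest shares within each genotype. In Rag2-/- tumors Ak1, Ccng1 and Phlda3 had shares of 91.9%, 78.2% and 70.9%, and in Rag2+/- tumors of 97.4%, 98.8% and 97.6%. The median share over the members was 29.8% in Rag2-/- and 64.3% in Rag2+/- tumors, beside 23.0% and 53.7% over all genes. Ddit4 had 52.7% in Rag2-/- and 5.84% in Rag2+/- tumors, with slopes of 0.22 and −0.071. Tested as a product of genotype and score, no slope difference passed: 0 of 31 members and 0% of all genes passed in limma, with 5 members and 12.9% of all genes under an unadjusted p of 0.05. Plk3 ranked 2 of 12826, with a slope of −0.044 in Rag2-/- and −0.36 in Rag2+/- tumors, a difference of 0.32 (SE 0.061, adjusted p 0.225). This count depended on single tumors. Without S51, the one Rag2-/- tumor with a score above 10, 7 members passed (Ccng1, Phlda3, Eda2r, Aen, Ak1, Gtse1 and Plk3), beside 8.73% of all genes, and without S53 1 passed, Apaf1, beside 0.366%.

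Between the genotypes no member passed. In limma, 0 of 31 members had an adjusted p under 0.05, beside 0.0312% of all genes (4 of 12826), and 8 members had an unadjusted p under 0.05, beside 16.3% of all genes. The values of the 2 groups overlapped for all 32 members, and 0.0156% of the genes tested did not overlap. Differences are log2, Rag2-/- minus Rag2+/-. The lowest p was that of Pml, which was at 3.95 in S47, 4.30 at the median and 4.63 in S43 among Rag2-/- tumors, and at 2.29 in S56, 3.68 at the median and 4.36 in S55 among Rag2+/- tumors. Rag2-/- values were tightly grouped, while Rag2+/- values were spread, with S56, S59 and S60, all above a muscle score of 10, at the low end; S52 and S51, also above 10, were at 3.92 and 4.32. The difference was 0.68 (SE 0.217, unadjusted p 0.00528, adjusted p 0.301). Polk (−0.54, SE 0.193) and Bbc3 (0.41, SE 0.162) followed, both with an adjusted p of 0.301. The largest differences were those of Ak1 (−1.79, SE 0.806) and Ccng1 (−1.39, SE 0.627), and Mdm2 differed by −0.55 (SE 0.220). For Cdkn1a the difference was −0.61 (SE 0.391), for Bax 0.12 (SE 0.129) and for Fas −0.034 (SE 0.433), with adjusted p values of 0.385, 0.576 and 0.966.

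The genotypes also differed in muscle content, so the difference was taken at a given muscle score. Again 0 of 31 members passed, beside 0.0156% of all genes, and 0 members had an unadjusted p under 0.05, beside 4.16%. The differences of Ak1 and Ccng1 were then 0.043 (SE 0.237) and −0.0058 (SE 0.250), that of Mdm2 −0.19 (SE 0.178) and that of Cdkn1a 0.012 (SE 0.327). Pml moved from 0.68 to 0.41 (SE 0.210), Polk was at −0.40 (SE 0.208) and Fas moved to 0.66 (SE 0.359), all with an adjusted p of 0.999. These standard errors leave room for differences of a size that 11 and 8 tumors do not resolve.

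**Figure D4:**
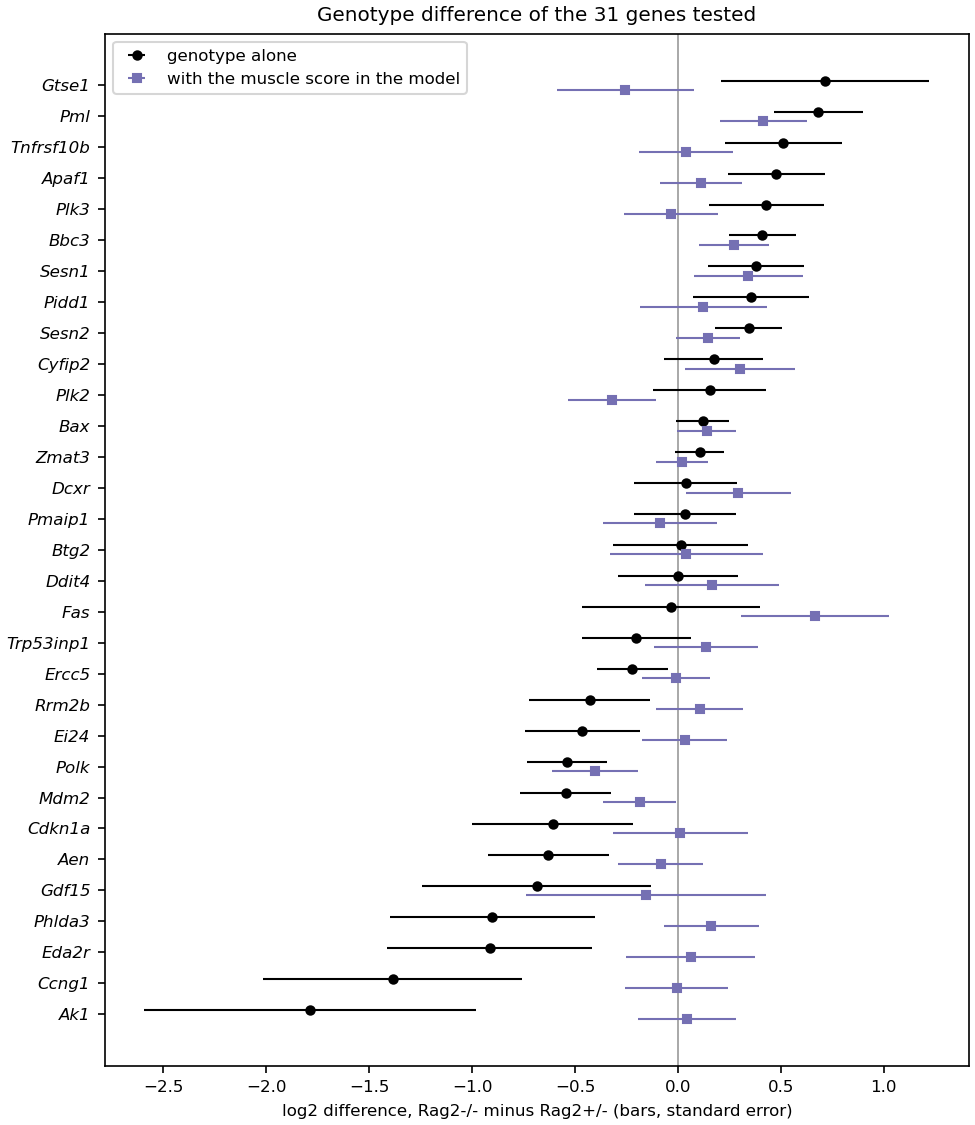
Log2 difference, Rag2-/- minus Rag2+/-, of the 31 p53 target genes tested, from limma over 19 tumors, with bars of 1 standard error. Circles are from genotype alone and squares with the muscle score in the model; Ak1 moves from −1.79 to 0.043 and Pml from 0.68 to 0.41.

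Mdm2 RNA is widely read as a gauge of p53 activity, and members were therefore compared with it at a given muscle score. Their estimates, the log2 change per unit of log2 Mdm2, had a median of 0.35 over 30 members and of 0.0015 over all genes. None passed an adjusted p of 0.05 in limma (0 of 30 members, 0% of all genes), and 11 of 30 had an unadjusted p under 0.05, beside 21.7% of all genes. Ccng1 ranked 6 of 12825 genes at 1.12 (SE 0.211, adjusted p 0.0621), Cdkn1a 37 at 1.37 (SE 0.303, adjusted p 0.0621), Aen 163 at 0.81 (SE 0.206, adjusted p 0.0666) and Ei24 229 at 0.78 (SE 0.207, adjusted p 0.0714). Gtse1 was the member that fell most with Mdm2, at −1.11 (SE 0.369, adjusted p 0.105). The other estimates below 0 were those of Bbc3 (−0.36), Tnfrsf10b (−0.30), Polk (−0.21), Ercc5 (−0.18), Sesn1 (−0.13), Pml (−0.12) and Sesn2 (−0.030), and none of them passed.

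**Figure D5:**
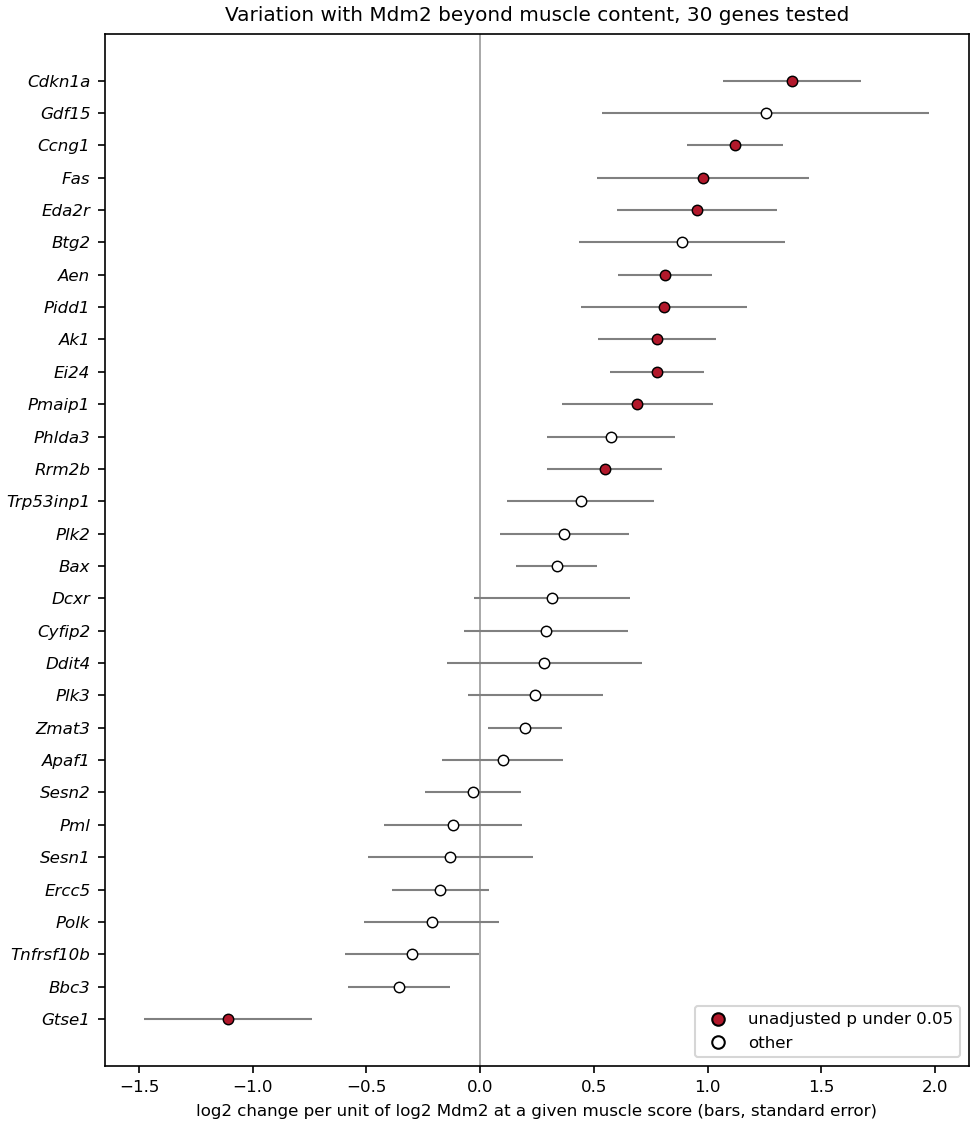
Log2 change of 30 p53 target genes per unit of log2 Mdm2 at a given muscle score, from limma over 19 tumors, with bars of 1 standard error. Filled points have an unadjusted p under 0.05; Cdkn1a at 1.37 and Ccng1 at 1.12 are the highest of them, and Gtse1 at −1.11 is the only one below 0.

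These 4 leading members lay near the threshold, and the call changed with the tumors and with the terms in the fit. Without S46, the tumor that stood apart, 5 members passed (Ccng1 with an adjusted p of 0.0199, Cdkn1a 0.0242, Ei24 0.0242, Aen 0.0261 and Gtse1 0.0498), beside 6.99% of all genes. With genotype added to the model, Ccng1, Cdkn1a, Ei24 and Aen passed, beside 3.99% of all genes. Leaving out S56 gave 5 members beside 8.49% of all genes, S41 3 beside 1.22%, S42 2 beside 1.04% and S54 1 beside 0.0858%. With the cell cycle score added none passed, and the estimates of Cdkn1a and Ccng1 were 1.31 (SE 0.401) and 0.75 (SE 0.243), while that of Gtse1 was 0.0078 (SE 0.271). In the 14 tumors with a score under 10 none passed either, where Cdkn1a was at 1.94 (SE 0.460), Ccng1 at 0.89 (SE 0.304), Ei24 at 0.64 (SE 0.286), Aen at 0.37 (SE 0.257) and Gtse1 at 0.17 (SE 0.363).

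No member passed with the level of Trp53 RNA itself. At a given muscle score, 0 of 31 members passed in limma (0% of all genes), and 0 had an unadjusted p under 0.05, beside 1.75% of all genes. The estimate per unit of log2 Trp53 was −0.0065 (SE 0.236) for Cdkn1a, 0.099 (SE 0.130) for Mdm2 and 0.14 (SE 0.101) for Bax. S58, with the highest Trp53 level, stood 0.361 residual SD below the muscle line for Cdkn1a and 0.323 above it for Mdm2.

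The members went together only in part. Over the 496 pairs the median correlation across the 19 tumors was 0.13, with 114 pairs above 0.5 and 85 below −0.5, all computed on the same libraries. After the line on the muscle score was taken off, the median was 0.11 and these counts were 68 and 18. Pairs of other genes were not counted, so whether these numbers are particular to the members was not tested. Some tumors led several members at once. S51 had the highest value of the 19 tumors for 9 of the 32 members, S56 for 5, S53 for 4 and S46 for 3, and S53 alone of these is listed in the source data. S51 also stood farthest above the muscle line for 11, among them Mdm2, Bax and Fas. S50 stood farthest below it for 11, and its Cdkn1a, Bax and Btg2 levels were the lowest of its group. How often each tumor was the extreme over all genes was not computed, so these counts may not be particular to the members. S46 had the highest Sesn1, Gdf15 and Dcxr of all tumors and the lowest Polk and Aen; the part of its adipocyte genes in this was not tested.

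Of 19 p53 regulators tested, 3 were higher and 6 lower with muscle, beside 26.5% and 33.7% of all genes, led by Twist1 (slope −0.32), Chek2 (−0.26) and Chek1 (−0.38), the checkpoint kinases. Of 26 further p53 targets, 8 were higher and 7 lower, beside the same shares of all genes, led by Ddit4l (0.99), an mTORC1 inhibitor of muscle, Lpin1 (0.61), a phosphatidate phosphatase, and Tigar (0.46), which lowers glycolytic flux. None of these genes passed between the genotypes. At a given muscle score none passed with Mdm2, where Psrc1 (1.45, adjusted p 0.081), Gadd45a (1.40, 0.0844), the damage-inducible growth arrest gene, and Ckap2 (−1.40, 0.0852) came closest.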

How the data were processed

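RNA from 19 tumors was sequenced as paired reads after library preparation with the NEBNext Ultra II kit, whose strandedness is not given in the sources used here. The deposited values are log2: per the study's methods the authors aligned reads to mouse B38 with the Omicsoft aligner, counted genes with Ensembl R86 models, computed FPKM, normalized to the upper quartile and took the log2. The submitters' processing notes also name Trimmomatic 0.36, STAR and HTSeq on mm10. All columns were matched to a tumor (0 left over). No count test was run, since the values are normalized. In genes with 1 transcript, 77.3 to 92.1% of the low values were whole multiples of 1 fragment within 0.05; fragments were estimated from this step with GENCODE vM21 lengths.

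limma 3.58.1 (R 4.3.3) with an intensity trend was fitted to genes with a mean log2 above 0, p values were adjusted by Benjamini-Hochberg over all of them, and 0.05 was the threshold. The fits took genotype, genotype with the muscle score, the score alone, their product, and Trp53 or Mdm2 with the score, each over all 19 tumors. The fit was tested on simulated data. Summaries used Python 3.11.15, pandas 2.3.3 and numpy 2.4.6. Labels tie each library to 1 tumor but pair none and name no shared litter or day. The members, gene lists, tests and named genes were chosen with earlier results of these data known. Alternatives were 15 tumors listed in the study's source data, each tumor left out in turn, a pseudocount of 1, other filters, quantile normalization, another variance model, a 3-gene muscle score, and Xist or the cell cycle score as covariates. The 14 tumors under a score of 10, the fits without S46 or S58 and the cell cycle score in the muscle and Mdm2 fits were added after seeing the data. Levels are given by group for Cdkn1a, Mdm2, Ccng1, Bax, Bbc3, Phlda3, Zmat3, Eda2r, Sesn1, Sesn2, Fas, Gdf15 and Trp53, for the 3 members with the lowest genotype p and for those with the highest or lowest shares; of other pathway genes the 3 with the lowest p are named.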

Additional observations from a re-analysis of the deposited data

Results flagged for a closer look

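Zmat3 in the Rag2+/- tumor S56 was at 1.77 on the log2 scale where the next lowest of the 8 tumors of its group was at 2.06. The gap was 0.529 of the group's whole range, just above the limit of Dixon's test for 8 values. Only the Rag2+/- group is of a size to which this check applies, it was run for 33 genes, and chance flags about 1 in 20. S56 also had the highest muscle score of all tumors, and the part of muscle in the Zmat3 value was not tested.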

How the results depend on the processing

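The count of 0 members between the genotypes, with and without the muscle score, and with the Trp53 level held in every alternative run. The 22 members called by muscle content were 19 in the 15 tumors listed in the source data (beside 54.6% of all genes), 20 to 22 when each tumor was left out and 3 in the 14 tumors under a score of 10 and with the cell cycle score as a covariate. With that covariate 5 slopes turned negative, those of Fas (−0.137, adjusted p 0.536 in limma), Gdf15 (−0.088, adjusted p 0.87), Btg2 (−0.13), Cyfip2 (−0.044) and Dcxr (−0.018). The 0 members whose slope differed between genotypes became 7 in those 15 tumors (beside 7.16% of all genes) and 0 to 7 when each tumor was left out. The 0 members called with Mdm2 became 5 in those 15 tumors (5.72% of all genes; Pml, at −0.79 with an adjusted p of 0.0449 in limma against −0.12 in all 19, in place of Gtse1), 5 without S46 (6.99%), 3 without S41 (1.22%), 4 with genotype added (3.99%), 1 with a pseudocount of 1 (0.327%), and 0 to 5 when each tumor was left out (up to 8.49%, without S56). The cause of these changes was not tested. No paired analysis was possible because each library is a tumor of its own and nothing in the labels ties tumors of the 2 genotypes together. In S41, 1 fragment on 1 kilobase is worth 0.211 FPKM, against 0.0343 to 0.0853 in the others, so that Gdf15 rests on 3.3 fragments and Perp on 0 there.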
